A study of Mus musculus with 66 samples.

Results

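In mouse embryonic stem cells carrying a deletion of a G-quadruplex at Praf2, 3346 of 15421 genes tested lay on one side of the wildtype range in every deletion library. Of these, 1501 genes were higher in all 4 deletion libraries than in all 3 wildtype libraries, and 1845 were lower. Genes were chosen by that rule alone: after scaling for depth, the deletion library nearest to the wildtype range had to stay outside it. The separated genes make up 21.7% of the genes tested, with 9.73% on the higher side and 11.96% on the lower side, and every count below is to be read against these shares. Praf2 was among the lower genes, as were its X-linked neighbours Ccdc120, Tfe3, Pim2 and Hdac6, the Xlr3 and Xlr4 genes and the non-muscle myosin gene Myh9. Of the 33 gene lists examined, the histone list had the greatest share on the higher side, with 33 of 67 measured genes above every wildtype library.

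The series profiled CTCF binding, R-loops, chromatin contacts and RNA in mouse embryonic stem cells, to ask how R-loops and G-quadruplexes relate to CTCF. The RNA libraries used here came from the E14 line, an established embryonic stem cell line. They fell into GDel1 with 2 libraries and GDel2 with 2 libraries, both of the genotype Praf2 G4 Deletion, and a Wildtype group with 3 libraries. All cells were untreated and grown in serum-containing DMEM with LIF, a GSK inhibitor and a MEK1/2 inhibitor, conditions that keep stem cells from differentiating. The labels do not give the position of the deletion or say if GDel1 and GDel2 each stand for 1 clone. Nor do they say whether replicates are separate cultures, so p-values measure only the spread between these libraries, which may be technical.

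A G-quadruplex is a four-stranded fold that DNA can take where runs of guanines lie close together. Such folds can form on the displaced strand of an R-loop, in which newly made RNA pairs with its DNA template. CTCF is a zinc finger protein that binds DNA at insulators and, with cohesin, anchors chromatin loops. Praf2 encodes a small protein of endoplasmic reticulum membranes, a relative of the prenylated Rab acceptor.

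The libraries held 12316853 to 18762704 expected counts, and 99.9% of these fell in the genes tested. Mitochondrially encoded genes took 9.91% and 4.83% of the counts in the GDel1 libraries, 6.19% and 9.60% in the GDel2 libraries, and 6.30% to 6.89% in the wildtype libraries. Replicates of a group differed more than sampling noise allows, by a chi-square of their counts that was, for each degree of freedom, 63.8 in GDel1, 21.02 in GDel2 and 4.61 to 6.97 among wildtype libraries. Stem cell markers were abundant in every library. Pou5f1 was at 377 to 506 CPM in deletion and 381 to 408 CPM in wildtype libraries, and the summed level of 6 stem cell markers was 3597 to 4245 CPM in deletion and 4248 to 4292 CPM in wildtype libraries. CPM, the usual depth-scaled count unit, were computed with library sizes adjusted by TMM. Summed fibroblast feeder markers were at 0.80 to 3.67 CPM in deletion and 1.59 to 2.35 CPM in wildtype libraries, and Col3a1, Postn and Dcn were at 0 in all libraries. Neural markers, almost wholly Tubb3, summed to 40.4 to 90.3 CPM in deletion and 32.0 to 32.7 CPM in wildtype libraries. Trophoblast markers summed to 0.49 to 2.03 CPM in deletion and 2.55 to 3.08 CPM in wildtype libraries, and mesendoderm markers to 5.13 to 19.6 CPM in deletion and 4.98 to 5.87 CPM in wildtype libraries. In RNA from whole cultures, fewer cells of a type and less RNA per cell cannot be told apart.

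The targeted gene was read first. Praf2 was at 10.1 and 9.26 CPM in the GDel1 libraries and 13.1 and 14.1 CPM in the GDel2 libraries, against 27.5, 28.8 and 30.6 CPM in the wildtype libraries. Every deletion library lay below every wildtype library by a wide margin, and both GDel1 libraries lay below both GDel2 libraries. The mean was 11.6 ± 2.33 CPM in deletion cells (SD, n = 4) and 28.9 ± 1.56 CPM in wildtype cells (SD, n = 3), a log2 fold change of -1.32 ± 0.16 (SE). With edgeR's quasi-likelihood test, which here counts the spread between GDel1 and GDel2 as error, the Benjamini-Hochberg adjusted p was 0.144. That is the lowest adjusted p in this test and is shared by 309 genes, so it does not rank them. The unadjusted p of Praf2 in the same edgeR test was 3.59e-05. The DESeq2 Wald test gave an adjusted p of 2.67e-08 for the same 2 groups. With GDel1, GDel2 and wildtype as separate groups in edgeR, Praf2 fell by 1.59 on the log2 scale in GDel1 (adjusted p = 0.00206) and by 1.09 in GDel2 (adjusted p = 2.01e-04). GDel1 and GDel2 also differed from each other at this gene, with a log2 ratio of GDel2 over GDel1 of 0.50 (adjusted p = 0.0183).

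The 250 bases before the Praf2 start site are shown because the deleted element is named for this gene, beside those of Myh9, the lower gene with the greatest level among those named below for their wide gap. Both come from RefSeq on GRCm38.p6: chrX:7728321-7728570 on the plus strand for Praf2 and chr15:77842176-77842425 on the minus strand for Myh9. Capitals mark a G-run motif, 4 runs of GGG spaced by 1 to 7 bases of any kind, searched on both strands.
Praf2: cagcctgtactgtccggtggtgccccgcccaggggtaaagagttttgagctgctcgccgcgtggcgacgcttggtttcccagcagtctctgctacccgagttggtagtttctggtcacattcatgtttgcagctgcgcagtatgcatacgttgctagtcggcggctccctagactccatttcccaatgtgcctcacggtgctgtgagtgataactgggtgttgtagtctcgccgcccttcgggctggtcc
Myh9: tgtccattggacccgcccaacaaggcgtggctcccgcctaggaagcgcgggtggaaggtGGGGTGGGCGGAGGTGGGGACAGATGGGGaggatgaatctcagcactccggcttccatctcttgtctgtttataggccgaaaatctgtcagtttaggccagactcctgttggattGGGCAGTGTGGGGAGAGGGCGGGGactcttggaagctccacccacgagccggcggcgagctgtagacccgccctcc
The Myh9 stretch held 2 such motifs and the Praf2 stretch held none in these letters. Of all 27025 genes in the RefSeq promoter table, 20.4% held the motif within 250 bases before to 50 after their start.

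Most separations were narrow. The gap, the log2 ratio of (CPM + 0.5) between the nearest deletion and the nearest wildtype library, had a median of 0.10 among the higher genes and 0.12 in size among the lower genes. A gap of at least 0.25, or 1.19-fold, was reached by 172 higher and 402 lower genes. A gap of at least 0.5, or 1.41-fold, was reached by 11 higher and 50 lower genes. At the edge of the rule, Tsnax was just inside on the higher side, with 30.507 CPM in its lowest deletion library and 30.505 CPM in its highest wildtype library. Vdac1 was just outside, with 582.78 CPM in its lowest deletion library and 582.86 CPM in its highest wildtype library. Gna11 was just inside and Gpa33 just outside on the lower side, with distances of 3.48e-05 and -3.38e-05 on the log2 scale.

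Across both deletions, the median log2 fold change of the higher genes was 0.40, against 0.04 for all genes tested, and that of the lower genes was -0.47. Set against the shared wildtype libraries, the higher genes had a median of 0.33 in GDel1 and 0.45 in GDel2, and the lower genes -0.37 in GDel1 and -0.53 in GDel2. These medians follow from how the genes were chosen and carry no test. The 3346 genes are those that passed the filter on low counts. Of the genes it removed, 260 were separated on the higher and 238 on the lower side, none with a mean above 1.28 CPM over all libraries together.

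In edgeR's quasi-likelihood test of 4 deletion against 3 wildtype libraries, 0 of 15421 genes had an adjusted p under 0.05 (0.0%), 2930 had an unadjusted p under 0.05, and 2469 of these were separated genes. The DESeq2 Wald test called 970 genes (6.29%), 3.13% of genes tested as higher and 3.16% as lower, of which 460 were separated on the higher and 487 on the lower side. With 3 groups in edgeR, the mean of GDel1 and GDel2 differed from wildtype at 3149 genes (20.4%), GDel1 alone at 58 (0.376%) and GDel2 alone at 5099 (33.1%), against the same wildtype libraries. Within the separated genes, GDel1 and GDel2 differed from each other at 679 genes, or 20.3%, against 27.7% of all genes tested (14.8% higher and 12.8% lower in GDel2). Among them, 287 of the higher genes were higher still in GDel2 and 23 in GDel1, and 342 of the lower genes were lower still in GDel2 and 27 in GDel1. Since the genes were chosen on this same contrast, the p-values given with them below describe their spread and are not independent support.

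The sides depend on scaling, and with TPM only 2.46% of the separated genes were higher. With the deposited TPM in place of scaled counts, 83 genes were higher and 3286 lower, and the median log2 fold change of all genes was -0.16 on the log2(TPM + 1) scale. With total counts without mitochondrial genes, 1121 genes were higher and 2290 lower, so that 32.9% of the separated genes were higher, against 44.9% with TMM scaling. Genes under 300 bases of effective length took 69.2% and 73.4% of the TPM in the GDel1 libraries, 62.1% and 63.5% in the GDel2 libraries, and 57.7%, 65.6% and 65.3% in the wildtype libraries.

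Of the higher genes with an established symbol and a mean of at least 2 CPM, the widest gaps were at Emp1, Evc2, Id1, Nipa1, Ccdc141, Snord22, Acsl5, Snrnp25, Gap43, Rprl3, Enox1 and Ddc. Emp1, a membrane protein of the PMP22 family, was at 21.7 and 22.2 CPM in GDel1 and 27.3 and 30.6 CPM in GDel2, against 11.1, 12.9 and 11.5 CPM in wildtype libraries. All 4 deletion libraries were clear of wildtype, with GDel2 the higher of the deletions. Its log2 fold change was 1.10 ± 0.16 (SE), with an adjusted p of 0.144 in edgeR and 1.83e-06 in DESeq2. Evc2, a ciliary protein needed for Hedgehog signalling, was at 9.66 and 8.80 CPM in GDel1 and 26.3 and 26.7 CPM in GDel2, against 5.45, 5.38 and 5.67 CPM in wildtype libraries. Here GDel2 lay far above GDel1, which itself stood above wildtype. Id1, an inhibitor of basic helix-loop-helix factors and a target of BMP signalling, was at 3.22 and 5.98 CPM in GDel1 and 4.02 and 5.20 CPM in GDel2, against 1.77, 1.73 and 2.05 CPM in wildtype libraries. GDel1 and GDel2 overlapped at this gene, and its log2 fold change was 1.32 ± 0.26 (SE; edgeR adjusted p = 0.144, DESeq2 adjusted p = 0.00347).

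**Figure D1:**
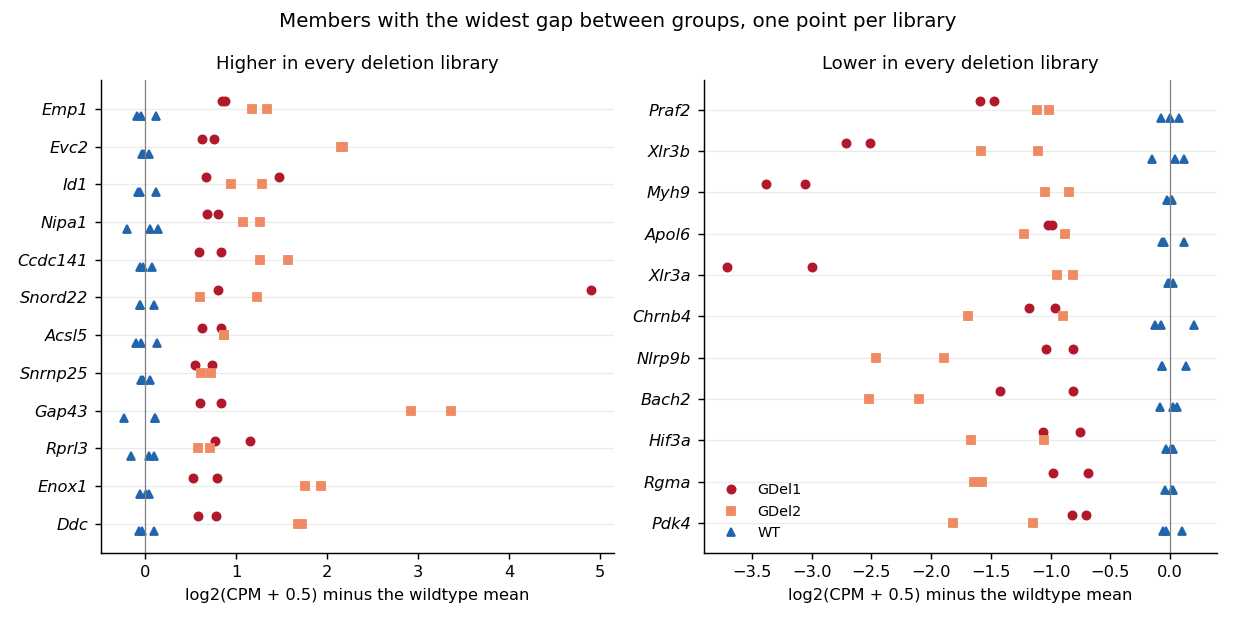
Values per library of log2(CPM + 0.5) minus the wildtype mean, for the 12 higher genes (left panel) with the widest gap and 11 of the corresponding lower genes (right panel), one point per library, GDel1, GDel2 and wildtype (WT) marked by shape and colour. No deletion point lies within the wildtype points, and at Evc2, Gap43, Myh9 and Xlr3a the GDel1 and GDel2 points lie apart.

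Nipa1, a magnesium transporter, was at 5.96 and 5.41 CPM in GDel1 and 8.36 and 7.30 CPM in GDel2, against 2.72, 3.34 and 3.57 CPM in wildtype libraries. Acsl5, which activates long-chain fatty acids, was at 3.54 and 4.16 CPM in GDel1 and 4.26 and 4.26 CPM in GDel2, against 2.36, 2.04 and 1.94 CPM in wildtype libraries. Snrnp25, a protein of the minor spliceosome, was at 11.1 and 12.6 CPM in GDel1 and 12.5 and 11.6 CPM in GDel2, against 7.73, 7.30 and 7.19 CPM in wildtype libraries. At Acsl5 and Snrnp25 the deletions had nearly the same level, with log2 ratios of GDel2 over GDel1 of 0.14 (edgeR adjusted p = 0.656) and 0.02 (edgeR adjusted p = 0.928). Ddc, the aromatic amino acid decarboxylase of dopamine and serotonin synthesis, was at 20.2 and 17.5 CPM in GDel1 and 39.5 and 38.3 CPM in GDel2, against 11.3, 11.01 and 12.4 CPM in wildtype libraries. Gap43, a protein of growing axons, was at 0.72 and 0.94 CPM in GDel1 and 5.60 and 7.73 CPM in GDel2, against 0.37, 0.19 and 0.37 CPM in wildtype libraries. It was low in GDel1 and well above wildtype in GDel2 (edgeR adjusted p = 3.18e-04 between the deletions). Snord22, a small nucleolar RNA within a host gene, rested on 1 library. It had 14.9 CPM in the second GDel1 library and 0.29 to 0.71 CPM in the other deletion libraries, against 0 to 0.05 CPM in wildtype libraries. Pooled, that was 305 counts in deletion and 1 count in wildtype libraries, a depth-scaled ratio of 246 with a 95% counting interval from 43.9 to 9760.

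Among the lower genes under the same rule, the widest gaps included those at Praf2, Xlr3b, Myh9, Apol6, Xlr3a, Chrnb4, Nlrp9b, Bach2, Hif3a, Rgma and Pdk4. Myh9, which encodes a non-muscle myosin II heavy chain, was at 16.4 and 20.7 CPM in GDel1 and 97.7 and 84.9 CPM in GDel2, against 173, 177 and 177 CPM in wildtype libraries. The 3 wildtype libraries were nearly equal, GDel2 lay well below them, and GDel1 lay far below GDel2. In the fit with 3 groups Myh9 fell by 3.23 on the log2 scale in GDel1 (edgeR adjusted p = 2.42e-05) and by 0.94 in GDel2 (edgeR adjusted p = 4.08e-04). Apol6, an apolipoprotein L gene, was at 2.90 and 2.81 CPM in GDel1 and 3.16 and 2.39 CPM in GDel2, against 6.77, 6 and 5.93 CPM in wildtype libraries. Its level was alike in both deletions, and its log2 fold change was -1.15 ± 0.18 (SE; edgeR adjusted p = 0.144, DESeq2 adjusted p = 2.90e-04).

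Hif3a, a hypoxia-inducible factor subunit, was at 15.5 and 19.3 CPM in GDel1 and 15.5 and 10.05 CPM in GDel2, against 33.6, 32.2 and 33.0 CPM in wildtype libraries. The deletions overlapped, while the 3 wildtype libraries were close together. Bach2, a transcriptional repressor best known from lymphocytes, was at 11.3 and 17.5 CPM in GDel1 and 6.87 and 4.99 CPM in GDel2, against 32.4, 31.5 and 29.3 CPM in wildtype libraries. Rgma, a BMP co-receptor and axon guidance molecule, was at 7.16 and 8.85 CPM in GDel1 and 4.34 and 4.55 CPM in GDel2, against 14.8, 14.8 and 14.2 CPM in wildtype libraries. At Bach2 and Rgma, GDel2 was the lower deletion. Pdk4, which inhibits pyruvate dehydrogenase, was at 4.11 and 4.48 CPM in GDel1 and 3.16 and 1.81 CPM in GDel2, against 7.29, 7.42 and 8.19 CPM in wildtype libraries. Nlrp9b, an inflammasome sensor, was at 3.30 and 2.76 CPM in GDel1 and 0.71 and 1.30 CPM in GDel2, against 6.84, 5.88 and 5.88 CPM in wildtype libraries.

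The Xlr genes, a family of near-identical X-linked lymphocyte-regulated copies, were on the lower side at 5 of the 6 measured. Xlr3a was at 0.40 and 0.05 CPM in GDel1 and 3.24 and 3.61 CPM in GDel2, against 6.84, 6.68 and 6.62 CPM in wildtype libraries. Xlr3b was at 0.16 and 0.26 CPM in GDel1 and 0.95 and 1.52 CPM in GDel2, against 3.97, 3.40 and 4.20 CPM in wildtype libraries. GDel1 was almost without either transcript, and GDel2 stood between GDel1 and wildtype. Xlr4a, Xlr4b and Xlr4c were at 0 to 0.10 CPM in GDel1 and 0 to 0.79 CPM in GDel2, against 0.74 to 2.54 CPM in wildtype libraries. Because the copies share sequence, how the counts divide among them is uncertain. The stretches of 250 bases before the Xlr3a and Xlr3b start sites come from RefSeq on GRCm38.p6 (chrX:73097096-73097345, minus strand, and chrX:73191929-73192178, plus strand). They show likeness before the start only, and the transcripts themselves were not compared. Capitals mark the longest run the 2 stretches share, 58 bases.
Xlr3a: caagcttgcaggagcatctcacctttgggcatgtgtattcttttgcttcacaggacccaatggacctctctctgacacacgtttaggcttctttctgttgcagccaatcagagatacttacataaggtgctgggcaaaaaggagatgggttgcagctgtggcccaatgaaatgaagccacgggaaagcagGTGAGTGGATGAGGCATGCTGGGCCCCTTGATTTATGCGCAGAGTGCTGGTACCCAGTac
Xlr3b: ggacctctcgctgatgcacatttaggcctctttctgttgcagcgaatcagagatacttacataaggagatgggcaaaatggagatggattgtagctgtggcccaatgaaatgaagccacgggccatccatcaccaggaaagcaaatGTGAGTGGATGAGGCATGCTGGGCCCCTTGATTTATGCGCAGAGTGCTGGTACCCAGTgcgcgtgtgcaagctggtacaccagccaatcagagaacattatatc

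Among the genes around Praf2, Ccdc120, Tfe3, Pim2 and Hdac6 were lower and Eras was higher. Leaving out Praf2 itself, 7 of the 20 genes measured within 200 kb were lower and 1 was higher, and within 500 kb 10 of 33 were lower and 1 was higher, against 11.96% and 9.73% of all genes. Ccdc120, the nearest of the separated neighbours, was at 13.2 and 12.4 CPM in GDel1 and 14.1 and 11.6 CPM in GDel2, against 20.5, 20.2 and 19.01 CPM in wildtype libraries. The 4 deletion libraries were close together and clear of wildtype, with a log2 fold change of -0.63 ± 0.12 (SE; edgeR adjusted p = 0.144, DESeq2 adjusted p = 7.83e-04). Tfe3, a transcription factor of lysosomal and autophagy genes, was at 72.4 and 75.0 CPM in GDel1 and 50.2 and 46.0 CPM in GDel2, against 110, 97.5 and 91.7 CPM in wildtype libraries. Pim2, a serine/threonine kinase, was at 15.0 and 13.2 CPM in GDel1 and 11.2 and 9.54 CPM in GDel2, against 22.7, 19.05 and 19.95 CPM in wildtype libraries. Hdac6, the cytoplasmic tubulin deacetylase, was at 74.1 and 84.3 CPM in GDel1 and 72.0 and 60.1 CPM in GDel2, against 103, 111 and 102 CPM in wildtype libraries. Prickle3, Otud5 and Pcsk1n were the other lower genes within 200 kb, and Suv39h1, Clcn5 and Tbc1d25 those between 200 and 500 kb. Eras, the embryonic stem cell Ras gene, was the 1 higher gene, at 4.27 and 5.31 CPM in GDel1 and 7.89 and 6.29 CPM in GDel2, against 3.90, 3.65 and 3.52 CPM in wildtype libraries.

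Histone genes were higher at 33 of 67 measured and lower at none, and their median log2 fold change was 0.59, against 0.04 for all genes. On the log2(TPM + 1) scale the median was 0.28, against -0.16 for all genes. DESeq2 called 24 of the 67 higher. Hist1h2ae was at 18.4 and 39.1 CPM in GDel1 and 16.6 and 17.2 CPM in GDel2, against 9.42, 9.40 and 12.1 CPM in wildtype libraries. Hist1h2bm was at 8.29 and 21.5 CPM in GDel1 and 8.13 and 8.24 CPM in GDel2, against 4.93, 4.82 and 6.20 CPM in wildtype libraries. At both genes the second GDel1 library stood far above the rest. The list's median per library, relative to the wildtype mean, was 0.51 and 0.65 in GDel1 and 0.33 and 0.63 in GDel2, against -0.08, -0.09 and 0.20 in wildtype libraries, so the third wildtype library was nearest to the deletions. Linker histone Hist1h1a, named after its values were seen, was more even, at 196 and 196 CPM in GDel1 and 172 and 224 CPM in GDel2, against 119, 120 and 139 CPM in wildtype libraries. Replication-dependent histone messages are short and lack poly(A) tails, and near-identical copies make the split of counts among them uncertain.

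Ribosomal protein genes were higher at 19 of 86 measured and lower at none, with a median log2 fold change of 0.27 that became -0.04 on the log2(TPM + 1) scale, where all genes had -0.16. Their median was 0.42 in GDel1 and 0.06 in GDel2. Rpl32 was at 252 and 356 CPM in GDel1 and 335 and 331 CPM in GDel2, against 188, 205 and 209 CPM in wildtype libraries. Rps27a, made as a fusion with ubiquitin, was at 180 and 393 CPM in GDel1 and 235 and 215 CPM in GDel2, against 124, 138 and 142 CPM in wildtype libraries. Nuclear genes of the respiratory chain were higher at 16 and lower at 2 of 80 measured, with a median of 0.19 that became -0.10 on the log2(TPM + 1) scale. By deletion, their median was 0.31 in GDel1 and -0.01 in GDel2. Of all tested genes in the shortest of 5 length classes and the upper 2 of 5 level classes, 20.5% were higher and 5.46% lower. The ribosomal protein and respiratory chain lists, at 22.1% and 20% higher, lay near that higher share, and the part of length and level was not tested. Ndufa9, a subunit of complex I, was at 81.5 and 86.7 CPM in GDel1 and 102 and 97.2 CPM in GDel2, against 63.8, 62.7 and 61.1 CPM in wildtype libraries. Cox6b2, the testis-type isoform of a cytochrome c oxidase subunit, was one of the 2 lower genes, at 14.6 and 13.2 CPM in GDel1 and 11.1 and 8.75 CPM in GDel2, against 23.9, 19.9 and 20.7 CPM in wildtype libraries. Of the mitochondrially encoded genes, 1 of 16 was separated, mt-Nd4l, which was higher.

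**Figure D2:**
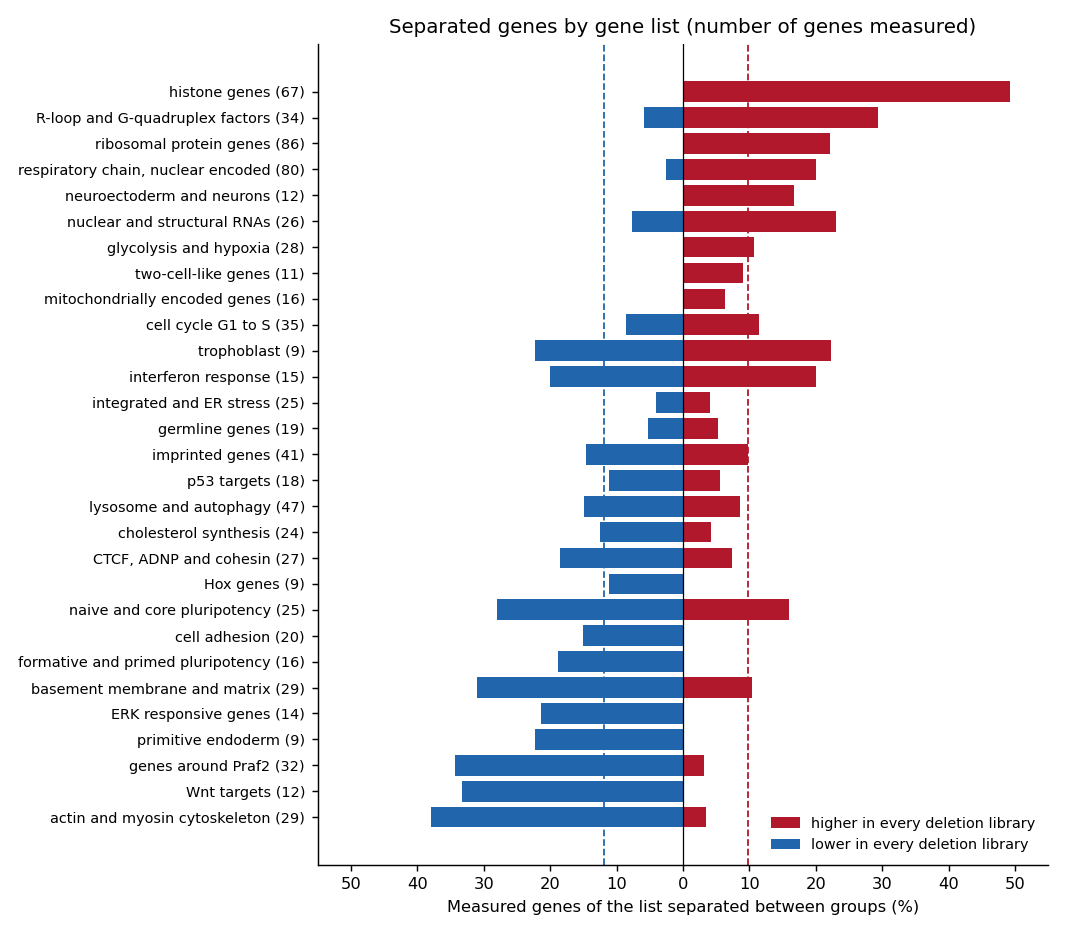
Share of the measured genes of each list that were higher (bars to the right) or lower (bars to the left) in every deletion library than in every wildtype library, in percent, for lists with 9 or more genes measured. Dashed lines mark the shares among all 15421 genes tested, 9.73% higher and 11.96% lower, and the histone bar reaches 49.3%. The list of genes around Praf2 counts Praf2 itself.

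Factors that bind or resolve R-loops and G-quadruplexes were higher at 10 and lower at 2 of 34 measured, and 6 of the higher ones were called by DESeq2. Their median log2 fold change was 0.09 on scaled counts and -0.20 on the log2(TPM + 1) scale, so the list as a whole lay near all genes. Of the higher ones, Cnbp, Recql and Fancd2 are on chromosome 6 and Rnaseh2a on chromosome 8, and the rest lie elsewhere. Cnbp, Recql and Rnaseh2a were among those called by DESeq2. The medians of both chromosomes were raised in GDel2, as given below, and the part of this in the list's counts was not tested. Ncl, nucleolin, a G-quadruplex binding protein of the nucleolus, was at 1183 and 1346 CPM in GDel1 and 1199 and 1244 CPM in GDel2, against 981, 1007 and 952 CPM in wildtype libraries. Cnbp, a nucleic acid chaperone of G-rich sequences, was at 407 and 426 CPM in GDel1 and 501 and 541 CPM in GDel2, against 340, 336 and 337 CPM in wildtype libraries. Of CTCF, ADNP and cohesin genes, 2 of 27 were higher and 5 lower, with a median of 0.07. Adnp, a zinc finger protein whose complex can compete with CTCF, was at 103 and 145 CPM in GDel1 and 168 and 118 CPM in GDel2, against 196, 225 and 200 CPM in wildtype libraries. Cbx3, the heterochromatin protein HP1 gamma, was at 356 and 353 CPM in GDel1 and 414 and 515 CPM in GDel2, against 258, 260 and 289 CPM in wildtype libraries.

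Among 26 nuclear and structural RNAs, 6 were higher and 2 lower, with a median log2 fold change of 0.38 that became -0.01 on the log2(TPM + 1) scale. The list's median was 0.47 in GDel1 and 0.10 in GDel2. Rprl3, an RNase P RNA-like gene, was at 51.8 and 68.1 CPM in GDel1 and 45.8 and 49.95 CPM in GDel2, against 27.2, 32.5 and 31.3 CPM in wildtype libraries. Firre, an X-linked noncoding RNA that helps to organise chromatin, was at 80.3 and 75.6 CPM in GDel1 and 72.6 and 72.0 CPM in GDel2, against 104, 98.8 and 97.3 CPM in wildtype libraries. Its log2 fold change was -0.41 ± 0.09 (SE; edgeR adjusted p = 0.144, DESeq2 adjusted p = 5.99e-04).

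Pluripotency genes lay on both sides. Of 25 naive and core pluripotency genes, 4 were higher and 7 lower, with a median log2 fold change of -0.12. Sall4, a stem cell transcription factor, was at 388 and 423 CPM in GDel1 and 406 and 302 CPM in GDel2, against 631, 646 and 588 CPM in wildtype libraries. All deletion libraries were well below wildtype, with a log2 fold change of -0.71 ± 0.13 (SE; edgeR adjusted p = 0.144, DESeq2 adjusted p = 2.40e-04). Lin28a, an RNA-binding protein that blocks let-7 maturation, was at 142 and 131 CPM in GDel1 and 206 and 201 CPM in GDel2, against 112, 110 and 95.4 CPM in wildtype libraries. Of 16 formative and primed genes, 3 were lower and none higher, among them Dnmt3l, a cofactor of de novo DNA methylation, at 33.6 and 32.8 CPM in GDel1 and 28.7 and 28.8 CPM in GDel2, against 43.4, 45.0 and 41.1 CPM in wildtype libraries.

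Wnt targets were lower at 4 of 12 measured and higher at none, with a median log2 fold change of -0.41 on scaled counts and -0.49 on the log2(TPM + 1) scale. Tcf7l2, a DNA-binding effector of the Wnt pathway, was at 9.82 and 13.2 CPM in GDel1 and 10.4 and 7.95 CPM in GDel2, against 22.8, 20.7 and 20.2 CPM in wildtype libraries. Apcdd1, a Wnt inhibitor at the cell surface, was at 27.4 and 23.5 CPM in GDel1 and 11.8 and 10.3 CPM in GDel2, against 42.2, 43.9 and 37.8 CPM in wildtype libraries. The cultures of both genotypes held a GSK inhibitor, which activates this pathway.

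Among cytoskeletal and matrix genes, Myh9, Fn1 and Fbln1 were lower. Of 29 actin and myosin genes, 11 were lower and 1 higher, and the median log2 fold change was -0.10. Of 29 basement membrane and matrix genes, 9 were lower and 3 higher, with a median of -0.04, or -0.29 in GDel1 and 0.10 in GDel2. Fn1, fibronectin, was at 820 and 1593 CPM in GDel1 and 990 and 528 CPM in GDel2, against 2022, 1999 and 1953 CPM in wildtype libraries. The deletion libraries spread over a wide range below a narrow wildtype range. Fbln1, a matrix glycoprotein, was at 52.5 and 56.7 CPM in GDel1 and 27.9 and 20.7 CPM in GDel2, against 75.4, 76.1 and 70.4 CPM in wildtype libraries. Among the 6 genes measured from a feeder list, Fn1, Vim and Col5a1 were lower. Of the feeder markers read, Col3a1, Postn and Dcn were at 0 throughout. Thy1 reached 2.47 CPM in deletion and 1.17 CPM in wildtype libraries, and Col1a1 0.78 and 1.03 CPM.

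In the remaining lists, Ulk1 was lower and Impact and Ccne2 were higher. Lysosome and autophagy genes were higher at 4 and lower at 7 of 47 measured, with Ulk1, the kinase that starts autophagy, at 162 and 221 CPM in GDel1 and 200 and 130 CPM in GDel2, against 299, 293 and 273 CPM in wildtype libraries. Imprinted genes were higher at 4 and lower at 6 of 41 measured. Impact, a translational regulator expressed from the paternal allele, was at 251 and 223 CPM in GDel1 and 231 and 256 CPM in GDel2, against 167, 180 and 183 CPM in wildtype libraries. Genes of the G1 to S transition were higher at 4 and lower at 3 of 35 measured, with Ccne2, cyclin E2, at 33.2 and 29.5 CPM in GDel1 and 35.7 and 46.4 CPM in GDel2, against 24.4, 24.3 and 23.5 CPM in wildtype libraries. Cholesterol synthesis genes were higher at 1 and lower at 3 of 24, and glycolysis and hypoxia genes higher at 3 and lower at none of 28. Stress lists gave few members, with 1 higher and 1 lower of 25 integrated and ER stress genes and 1 higher and 2 lower of 18 p53 targets. The interferon response list had 3 higher and 3 lower of 15.

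Among genes of other cell types and states, the neuronal genes Gap43 and Tubb3 were higher. Of 11 genes of the two-cell-like state, 1 was higher and none lower, although the list's median log2 fold change was 2.07, with -0.70 in GDel1 and 3.06 in GDel2. That median became 0.37 on the log2(TPM + 1) scale. Gap43 and Tubb3 were 2 of 12 neuroectoderm and neuronal genes measured. Tubb3, a neuronal tubulin also found in other cells, was at 38.4 and 41.1 CPM in GDel1 and 81.6 and 85.4 CPM in GDel2, against 29.9, 30.2 and 29.2 CPM in wildtype libraries. Trophoblast genes were higher at 2 and lower at 2 of 9 measured, mesendoderm genes lower at 1 of 6, primitive endoderm genes lower at 2 of 9, germline genes higher at 1 and lower at 1 of 19, and Hox genes lower at 1 of 9. The cell adhesion list had 3 lower of 20, and the ERK responsive list 3 lower of 14, none of either being higher. Several of these lists had medians on opposite sides by deletion. In GDel1 and GDel2 the median log2 fold change was -0.19 and 0.85 for ERK responsive and -0.26 and 1.25 for germline genes. It was -0.55 and 0.98 for mesendoderm, -0.39 and 0.16 for primitive endoderm, and -0.69 and 0.67 for Hox genes. For trophoblast genes it was -0.04 and -0.51, and for cell adhesion genes 0.03 and -0.32.

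The lower genes were longer than the higher ones. The median effective length, the length over which a fragment can start, was 1669 bases among the higher genes, 2655 among the lower genes and 2034 among all genes tested. Split into 5 equal classes by effective length, genes of the shortest class were higher in 12.1% and lower in 5.41% of cases, and genes of the longest class were higher in 6.13% and lower in 19.9%. The slant was also present among the more abundant genes, those in the upper 2 of 5 classes of level. There the lower share ran from 5.46% in the shortest to 25.6% in the longest class, and the higher share from 20.5% to 8.26%. Every deletion library showed the slant on its own. The median of the shortest class relative to the wildtype mean was 0.15 and 0.10 in GDel1 and 0.05 and 0.07 in GDel2, against -0.01, -0.01 and 0.02 in wildtype libraries, on the log2 scale. In the longest class it was -0.11 and -0.10 in GDel1 and -0.06 and -0.05 in GDel2, against 0.01, 0.02 and -0.02 in wildtype libraries. The third wildtype library leaned the same way as the deletions, more weakly. Histone and ribosomal protein genes are short, while Myh9 and Fn1 have long messages, and the part of length in their values was not tested.

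**Figure D3:**
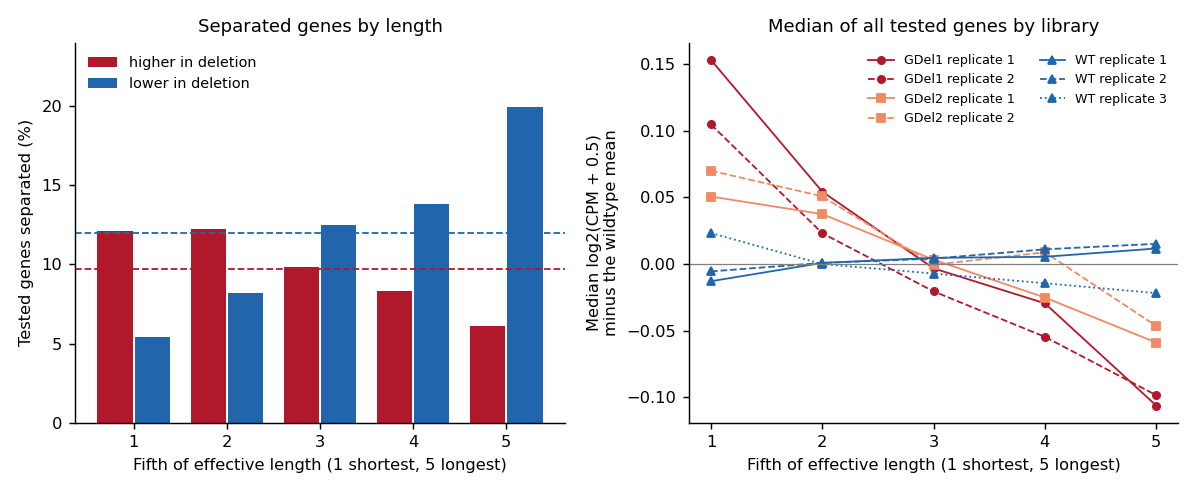
Left, the share of tested genes higher or lower in every deletion library, in percent, by class of effective length from 1 (shortest) to 5 (longest), with dashed lines at the shares among all genes. Right, the median of log2(CPM + 0.5) minus the wildtype mean over all tested genes of each class, 1 line per library, in which all 4 deletion libraries run from above 0 in the shortest class to below 0 in the longest.

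Level also bore on which genes were separated. In the lowest of 5 classes of level, 3.18% of genes were higher and 5.80% lower, and in the highest class 14.7% were higher and 17.8% lower. The median level was 37.8 CPM among the higher genes and 34.6 CPM among the lower genes, against 15.8 CPM among all genes tested. By annotated type, 11.1% of 12364 protein-coding genes were higher and 13.2% lower, 6.23% of 802 pseudogenes were higher and 2.74% lower, and 7.04% of 469 lncRNA genes were higher and 7.46% lower.

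The separated genes were not spread evenly over the chromosomes. On chromosome 6, 17.7% of 666 tested genes were higher and 5.41% lower, and on chromosome 8, 18.0% of 724 genes were higher and 4.14% lower. In GDel2 the median of all tested genes relative to the wildtype mean was 0.47 and 0.47 on chromosome 6 and 0.45 and 0.40 on chromosome 8, while in GDel1 it lay between -0.03 and 0.03 on both, and in wildtype libraries between -0.01 and 0.01. The median over each of these chromosomes was thus raised in both GDel2 libraries and in neither GDel1 library. Emp1, Cnbp, Recql, Fancd2, Cbx3, Rpl32 and Ndufa9 are on chromosome 6, and Tubb3, Rprl3 and Rnaseh2a on chromosome 8. On chromosome 13, 17.8% of 572 genes were higher and 7.34% lower, and without its histone genes, of which 29 of 52 were higher, 14.04% were higher and 8.08% lower. Chromosome 7 leaned the other way, with 5.55% of 1117 genes higher and 18.0% lower, and the X chromosome lay near the average, with 10.1% of 503 genes higher and 13.5% lower.

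**Figure D4:**
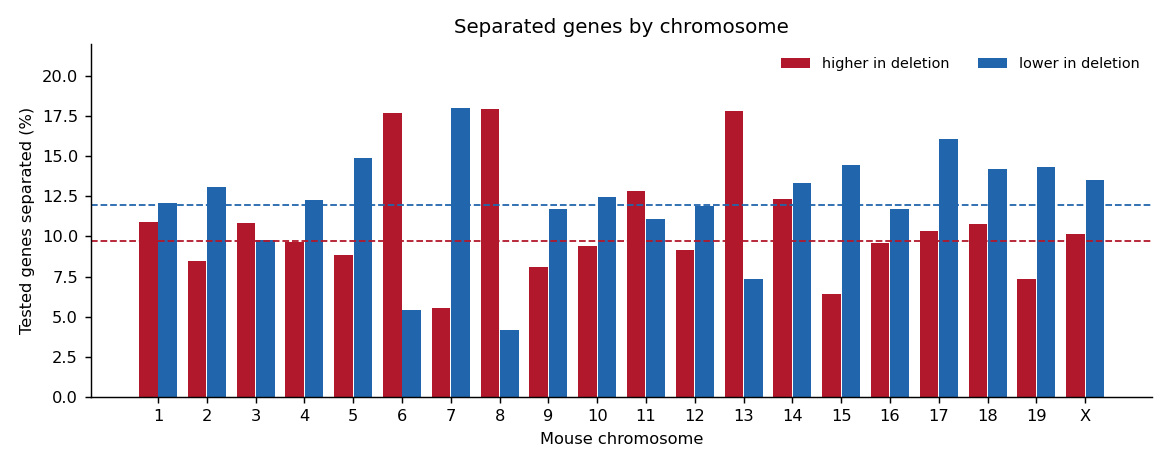
Share of tested genes on each chromosome that were higher or lower in every deletion library than in every wildtype library, in percent, with dashed lines at the shares among all genes tested. Chromosomes 6, 8 and 13 carry the greatest higher shares, 17.7%, 18.0% and 17.8%, and chromosome 7 the greatest lower share, 18.0%.

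Start-site windows of the separated genes were searched for the G-run motif, which the choice of genes did not use. RefSeq windows of 300 bases were found for 81.4% of the 2994 separated protein-coding genes, and for 74.5% of all separated genes, too few for a check over the whole set. The motif was present in 23.96% of windows of the 1102 higher genes and in 38.9% of those of the 1336 lower genes, against 31.7% of the 7558 protein-coding genes tested that were not separated. GC content moved with it, with a median of 59.7% in windows of higher genes, 62.8% in windows of lower genes and 61.0% in the rest. Within each of 5 equal classes of window GC content the lower genes held the motif more often than the higher genes, with 12.1% against 9.16% in the class of lowest GC content, 36.3% against 23.0% in the middle class and 60.2% against 54.7% in the class of highest GC content. Among genes not separated the share was 9.29%, 31.7% and 58.0% in those classes. By class of effective length, the motif was in windows of 28.2% of lower and 18.9% of higher genes in the shortest class. Among all protein-coding genes tested in that class the share was 22.8%. In the longest class it was 40.1% of lower and 24.5% of higher genes, against 38.2% of those tested. These shares are a description of letters in fixed windows, and the part of GC content and of gene length in them was not tested beyond these splits.

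**Figure D5:**
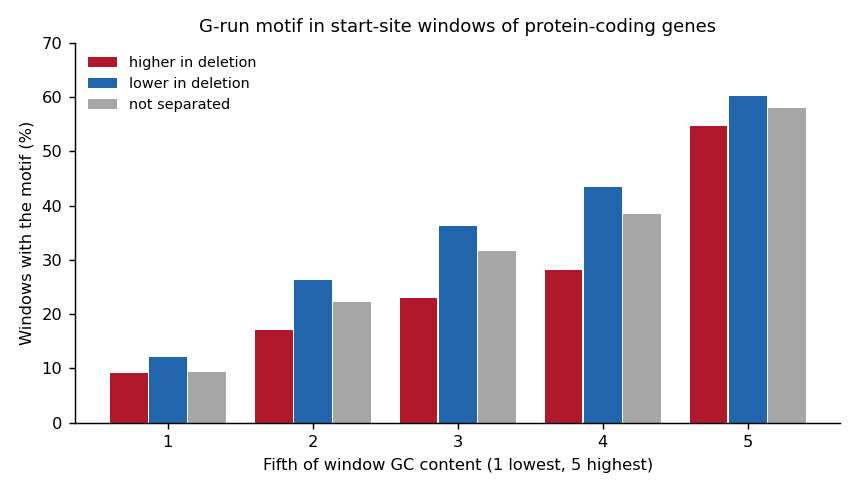
Share of start-site windows that hold the G-run motif, in percent, for protein-coding genes higher in deletion, lower in deletion or not separated, by class of window GC content from 1 (lowest) to 5 (highest). In every class the bar of the lower genes is above that of the higher genes.

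Acsl5 and Ccdc141 were the higher genes, among those of the 12 with a RefSeq window, whose 250 bases before the start held the motif, and Acsl5 is shown as the counterpart to Myh9 (RefSeq, GRCm38.p6, chr19:55253119-55253368, plus strand, motif in capitals). Both windows precede a start that lies inside the annotated span of its gene, which for Acsl5 begins at position 55251861.
Acsl5: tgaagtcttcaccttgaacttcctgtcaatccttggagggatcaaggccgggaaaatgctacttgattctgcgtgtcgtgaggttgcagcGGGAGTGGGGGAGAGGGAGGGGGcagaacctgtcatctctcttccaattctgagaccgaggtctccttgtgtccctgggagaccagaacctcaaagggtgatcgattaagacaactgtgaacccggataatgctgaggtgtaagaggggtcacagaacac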

How the data were processed

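RNA was ribosomal-RNA depleted and made into libraries with a directional kit, per the labels' protocols. The tools named in the submitters' processing notes include STAR and RSEM, with the build mm10, without saying which step each served. No source used here gives their versions, the annotation release or the strand setting. The deposited tables held expected counts, TPM, FPKM and gene lengths for 55487 genes. The authors' expected counts were rounded to whole numbers; the deposited TPM were used as an alternative only, and the deposited FPKM were not used. Genes were kept with edgeR's filter (minimum count 10, minimum total 15), which left 15421. CPM used TMM library sizes, and 0.5 was added before logs. Deletion against wildtype was tested with edgeR 4.0.16 (quasi-likelihood, robust) in R 4.3.3, adjusted by Benjamini-Hochberg at 0.05 and tested on simulated data; DESeq2 1.42.0 and limma 3.58.1 were alternatives. Totals of 12316853 to 18762704 counts limit precision for genes of a few CPM, and the counting interval covers counting error only. Symbols were paired with gene IDs for 55141 of 55487 genes, and 37984 had a RefSeq position (GRCm38.p6).

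The members and gene lists were chosen with earlier results of these data known. Genes named in the text were Praf2, the 12 higher and 12 lower members with the widest gap (established symbol, 2 CPM or more on average where higher) and up to 2 members per list by the same gap. Xlr and Praf2-region members are named in full, and Recql, Fancd2 and Rnaseh2a for their chromosomes. Some genes that meet this rule are not reported here. The other 59 samples of the series were not analysed here.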

Additional observations from a re-analysis of the deposited data

Results flagged for a closer look

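In 6 places 1 of the 4 deletion libraries stood far from the other deletion libraries, a flag that chance raises for about 1 in 20 groups. At that rate the 71 genes named by rule would alone raise several flags. Snord22 was at 14.9 CPM, Hist1h2ae at 39.1 CPM and Hist1h2bm at 21.5 CPM in the second GDel1 library, each far above the other deletion libraries. Acsl5 was at 3.54 CPM in the first GDel1 library, below the others. Xlr4c was at 0.16 CPM in the first GDel2 library and at 0 in the others, and Otud5 was at 36.8 CPM in the second GDel2 library, below the others.

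At 27 of the 71 genes named by the gap and list rules GDel2 and GDel1 differed from each other in edgeR's fit with 3 groups (adjusted p under 0.05), although both lay on the same side of wildtype. By the same fit they differed at 27.7% of all genes tested and at 20.3% of the separated genes. The values that follow are log2 ratios of GDel2 over GDel1. Among genes higher in deletion, GDel2 was the higher deletion at Gap43 (2.97), Evc2 (1.52), Sycp3 (1.37), Enox1 (1.22), Tubb3 (1.07), Ddc (1.05), Pdk1 (0.87), Ccdc141 (0.76), Lin28a (0.58), Emp1 (0.40), Cbx3 (0.39) and Cnbp (0.32). Among genes lower in deletion, GDel2 was the lower deletion at Tdrd12 (-1.73), Nlrp9b (-1.56), Igf2 (-1.36), Bach2 (-1.30), Apcdd1 (-1.19), Fbln1 (-1.17), Sqle (-0.90), Rgma (-0.85), Pdk4 (-0.80), Tfe3 (-0.62) and Sesn2 (-0.56). GDel1 was the lower deletion at Xlr3a (4.09), Xlr3b (2.45), Myh9 (2.29) and Praf2 (0.50). Of the genes named outside those rules, Vim, Xlr4a and Zfy1 also differed, at -0.66 (adjusted p = 0.00208), 6.40 (adjusted p = 0.00547) and -6.05 (adjusted p = 0.00822). Recql, Fancd2 and Rnaseh2a did so as well, at 0.59, 0.72 and 0.38 (edgeR adjusted p = 0.00465, 0.00106 and 0.0355). Xlr4a was at 0 in GDel1 and Zfy1 at 0 in GDel2, so their fitted ratios depend on the prior count and are no bound.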

How the results depend on the processing

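The count of genes called was 0 with edgeR and 2 groups, and also 0 with RLE scaling, a stricter filter, the replicate block, without both high-mitochondrial libraries and without each library in turn (0 to 0). It was 970 with DESeq2, 3149 with 3 groups, 1 without a filter and 2 with limma on log2(TPM + 1). Genes higher in deletion numbered 83 with TPM, 2947 without GDel1 replicate 1 and GDel2 replicate 2, and 1750 to 2538 without each library in turn, the last without GDel1 replicate 2. Genes lower in deletion numbered 3286 with TPM, 3016 without both of those libraries, and 2041 to 2714 without each library. Fewer libraries make the rule easier to meet. Of the members with all libraries, 75 higher and 1455 lower ones kept their side with TPM, and 1496 and 1757 without both high-mitochondrial libraries. Dropping libraries can lose a member only through rescaling or the filter, so those last counts were bound to stay high and are no support. The log2 fold change of Praf2 passed the threshold at -1.32 with DESeq2, -1.34 with 3 groups and -1.33 without a filter, and ran from -1.43 to -1.22 without each library, where its edgeR adjusted p ran from 0.0640 to 0.515. Among the 71 genes named by rule, Slc2a3 alone turned to lower (-0.024 and -0.024), with limma on log2(TPM + 1) and log2(TPM + 0.1). The cause was not tested. DESeq2 called 42 and the 3-group fit 62 of the 71 genes named by rule, Praf2 included. Over all genes tested the shares called were 6.29% and 20.4%. The named genes were picked by their gap on this same contrast, so more calls among them follow from that choice. Some of those not called by DESeq2, such as Gap43 and Xlr3b, had no adjusted p there. The stricter filter and the omission of both libraries were chosen for single genes after seeing the data. Replicate numbers gave no pairing: same-numbered libraries of GDel1 and GDel2 correlated at -0.21, and the replicate block left Praf2 at -1.28 (edgeR adjusted p = 0.659). Differently numbered libraries of GDel1 and GDel2 correlated at 0.21, which with 2 libraries per group is the same value with its sign turned. The high-mitochondrial libraries, GDel1 replicate 1 and GDel2 replicate 2, are such a pair.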

Other observations

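The Y chromosome set the deletions apart. Summed over the 6 Y-linked genes tested, levels were 316.6 and 319.4 CPM in GDel1 and 16.4 and 12.6 CPM in GDel2, against 273.6, 246.5 and 265.7 CPM in wildtype libraries. Zfy1, a Y-linked zinc finger gene, was the 1 separated gene of the 6, at 0.48 and 0.57 CPM in GDel1 and 0 and 0 CPM in GDel2, against 1.69, 1.24 and 1.00 CPM in wildtype libraries.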
